A study of Mus musculus with 4 samples.

Results

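The semaphorin, ephrin, netrin and slit systems, with their receptors, were measured by RNA-seq of the mouse retina at postnatal day 8. Members were taken by gene symbol: all symbols starting Sema, Plxn, Efna, Efnb, Epha, Ephb or Unc5, the numbered Robo, Slit and Ntn genes, the Ntng genes, and Nrp1, Nrp2 and Dcc, with 1 class 3 semaphorin not analysed here. The deposited table of 23336 genes held 72 such members, and the 69 that average 10 or more normalized counts are described. No measured difference between genotypes entered this choice. Epha1 lay just inside that minimum at a mean of 10.1, and the plexin gene Plxnb3 just outside it at 9.64. Unc5cl, at 0.972, and Ntn5, listed at 0 in all libraries, were also below it. Unc50 shares the first letters of the Unc5 genes but encodes an unrelated membrane protein, so that 68 guidance genes remain, 35 for ligands and 33 for receptors.

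Opn4-DTA/DTA mice are homozygous for an allele that places the diphtheria toxin A chain at Opn4, the gene of the photopigment melanopsin. They were compared with wild-type (WT) littermates. Each genotype had 2 libraries, all on the C57/Bl6 background and at postnatal day 8. The toxin is made where the Opn4 locus is active, which is in intrinsically photosensitive retinal ganglion cells, and it kills the cells that make it. With this allele, loss of the pigment and loss of the cells that hold it cannot be told apart. The sample labels call the tissue dissociated cells, whereas the design text speaks of extracts of the whole retina. Per its title, the series asks how these ganglion cells bear on where cones come to lie, and guidance molecules are among the genes that place retinal cells and their processes.

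Guidance ligands tell growing axons, dendrites and migrating cells where to go, by attraction or repulsion at the cell surface. Semaphorins signal through plexins, with neuropilins as co-receptors for most secreted class 3 semaphorins, while ephrins bind Eph receptor kinases, and slits bind Robo receptors. Netrins act through Dcc and the Unc5 receptors, and the membrane-anchored netrin-G proteins bind partners of the Lrrc4 family. In the mouse retina these systems steer ganglion cell axons to the optic disc and map them onto their brain targets. They also confine neurites to the inner plexiform layer and its sublayers, and several of them pattern blood vessels.

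Values are normalized counts, which are gene counts divided by a size factor for each library. The deposited columns are means over the 2 libraries of a genotype, from which the whole counts of each library were recovered. Which of the labelled samples each recovered library is remains unknown. Within a genotype, library a denotes the deeper and library b the shallower one, and values are given in that order. Total counts ranged from 22202382 to 60833968 per library. Opn4 had 0.546 and 0 normalized counts in Opn4-DTA/DTA, against 428 and 246 in WT, which are 1 and 0 counts against 369 and 161 counts, in accord with the labels (limma adjusted p = 0.00255). Positions are those of GENCODE M21 on mm10. Opn4 lies on chromosome 14, which carries 0 of the 72 members. Rods, cones, bipolar, amacrine, horizontal and ganglion cells and Muller glia all had their defining markers above 0 in every library. Of the markers of photosensitive ganglion cells, Opn4 was at 0 in 1 library of Opn4-DTA/DTA. Eomes had 725 and 661 normalized counts in Opn4-DTA/DTA, against 974 and 582 in WT, and its libraries overlapped. Adcyap1 overlapped too, at 279 and 358 in Opn4-DTA/DTA, against 369 and 295 in WT. Tbx20 had 152 and 124 in Opn4-DTA/DTA, against 294 and 225 in WT (log2 fold change -0.90, limma adjusted p = 0.9997).

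No guidance gene passed the test between Opn4-DTA/DTA and WT retinas. Of 69 members none passed limma at an adjusted p of 0.05, where 3 of 15003 tested genes, 0.02%, passed over the whole table. None of the members had an unadjusted p under 0.05 in limma, where 249 of the 15003, 1.66%, did. The lowest adjusted p among members was 0.9997. Log2 fold changes of Opn4-DTA/DTA over WT ran from -0.65 for Epha1 to 0.32 for Robo4, with 35 members above 0 and 34 below. Their median was 0.01, with quartiles at -0.10 and 0.08, and all 15003 tested genes had a median of -0.0001 with quartiles at -0.07 and 0.07. In bulk tissue, fewer cells of a type and less RNA per cell cannot be told apart.

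What the data leave room for is given by the 95% interval of each fold change. The interval stayed within 0.5 log2 units of 0 in 53 of 69 members (76.8%), and in 67.2% of all tested genes. It stayed within 1 log2 unit in 66 members, and the exceptions, Epha1, Ntn1 and Slit3, had the lowest levels. Smaller changes than these intervals were not detectable at this depth with 2 libraries per genotype, and the adjusted test could also miss larger ones. The intervals carry no adjustment over the 15003 tested genes. Both Opn4-DTA/DTA libraries lay above both WT libraries in 8 of 69 members (11.6%), as they did in 11.2% of all tested genes. They lay below both in 8 members (11.6%), against 12.3% of all tested genes. These shares are close to the background of the table, so they are no result about the guidance genes.

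**Figure D1:**
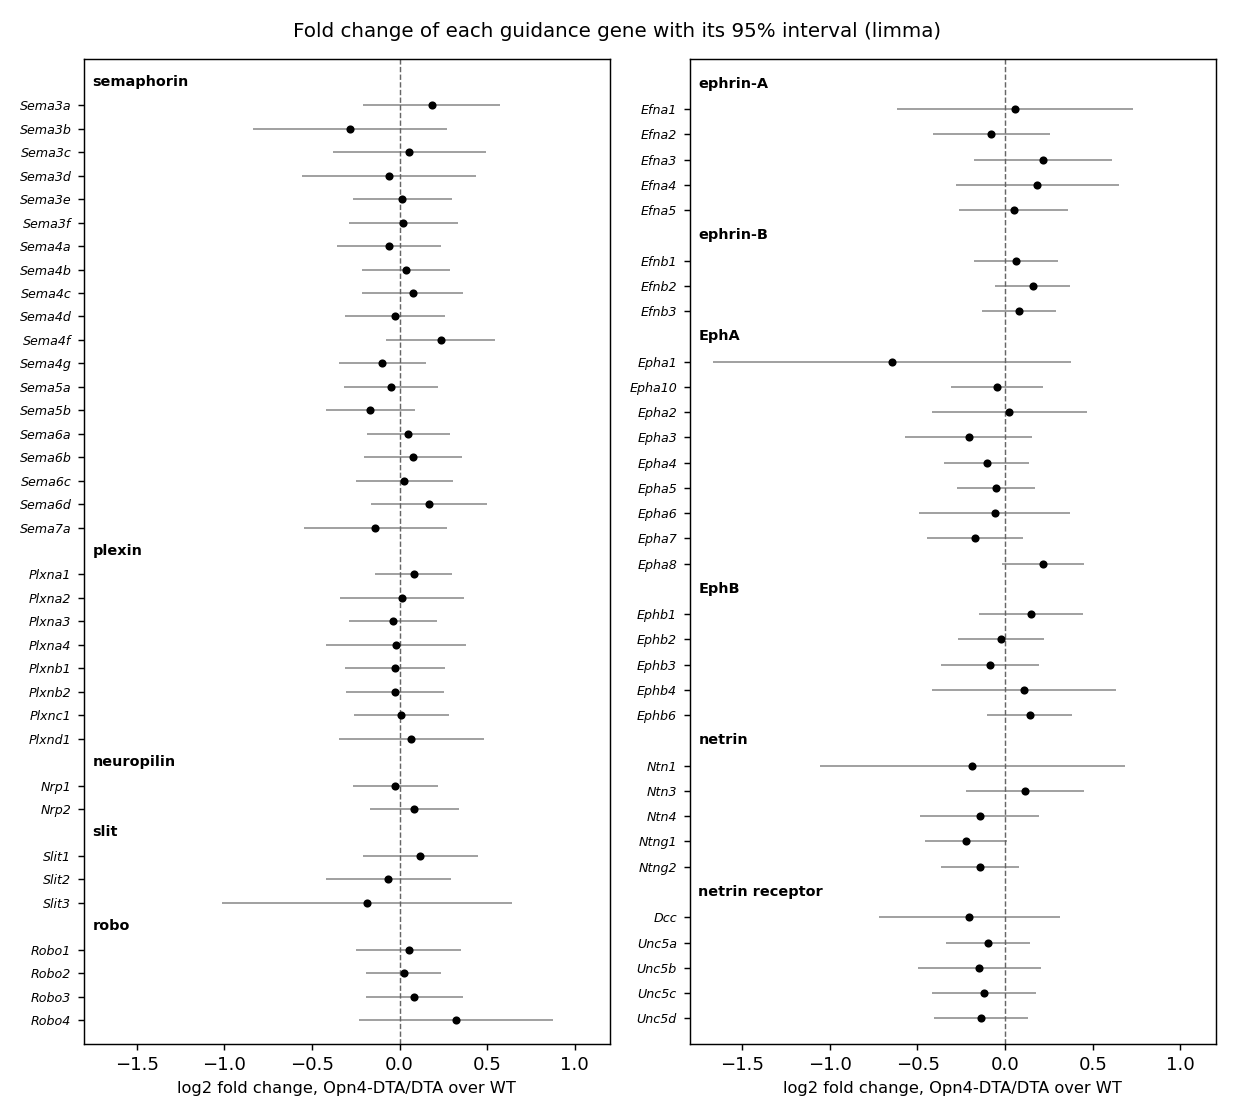
Log2 fold change of Opn4-DTA/DTA over WT (x axis) for the 68 guidance genes above the minimum level, grouped by family. Points are limma estimates and bars are 95% intervals from 2 libraries per genotype. The interval includes 0 for each gene, and it is widest for Epha1, from -1.67 to 0.38.

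Ephrins, the ligands of Eph receptors, had log2 fold changes above 0 in 7 of 8 genes, with a median of 0.07 and no gene past the test. Libraries of the genotypes did not overlap for Efna3, Efna4, Efnb2 and Efnb3. Efnb2 encodes a transmembrane ephrin that is also a mark of arterial endothelium, and it lies on chromosome 8 from 8617439 to 8660773. It had 3324 and 3494 normalized counts in Opn4-DTA/DTA, against 2986 and 3122 in WT. Both Opn4-DTA/DTA values were above both WT values, by a log2 fold change of 0.16 (95% interval -0.06 to 0.37, limma adjusted p = 0.9997). Efnb3 had 2497 and 2450 in Opn4-DTA/DTA, against 2319 and 2360 in WT, a tighter separation by 0.08 log2 units. Efnb1, on the X chromosome from 99136130 to 99148991, had 1222 and 1269 in Opn4-DTA/DTA, against 1229 and 1159 in WT, and its libraries overlapped. All 3 ephrin-B genes kept their sign in each alternative setting and with each library left out. For Efnb2 and Efnb3 leaving out a library could not turn the sign, because the libraries of the genotypes did not overlap. Efnb1 ran from 0.02 to 0.10 over these settings.

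Ephrin-A genes, whose products are anchored to the membrane by lipid and form gradients for the map of ganglion cell axons, were at lower levels. Efna5, on chromosome 17 from 62602957 to 62881317, had 1143 and 922 normalized counts in Opn4-DTA/DTA, against 1017 and 969 in WT. The Opn4-DTA/DTA libraries of Efna5 enclosed those of WT, with a log2 fold change of 0.05 (95% interval -0.26 to 0.36). Efna1, Efna3 and Efna4 are neighbours on chromosome 3, separated by 34000 and 10514 bases. Efna3 had 377 and 388 in Opn4-DTA/DTA, against 376 and 288 in WT. WT library b stood low for Efna3, and WT library a was within 1 normalized count of the nearer Opn4-DTA/DTA library (log2 fold change 0.22, 95% interval -0.18 to 0.61). Efna2, another ephrin-A gene, had 592 and 741 in Opn4-DTA/DTA, against 715 and 684 in WT, and it was the 1 ephrin below 0. Efna4 had 108 and 103 in Opn4-DTA/DTA, against 90.5 and 94.9 in WT. Efna1 differed from them, with 222 and 199 in Opn4-DTA/DTA, against 277 and 147 in WT, so the WT libraries enclosed those of Opn4-DTA/DTA. Exons of Efna3 and Efna4 overlap an opposite-strand gene over 14.6% and 10.5% of their bases in GENCODE. Such an overlap is found in 10 of the 69 members, among them Plxna1 with 10.7% and Epha1 with 6.97%. The strand setting of the counting is not given in the sources used here, so such counts are uncertain.

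EphA receptors had lower means in Opn4-DTA/DTA in 7 of 9 genes, with a median log2 fold change of -0.06 and none past the test. With 1 library left out, 1 to 4 of the 9 were above 0. Epha8 went the other way. It lies on chromosome 4 from 136929419 to 136956816 and had 3715 and 3314 normalized counts in Opn4-DTA/DTA, against 3115 and 2937 in WT. Both Opn4-DTA/DTA values were above both WT values, with a log2 fold change of 0.21 (SE 0.10, 95% interval -0.02 to 0.45, limma adjusted p = 0.9997). Ephb2, only 93484 bases away on chromosome 4, did not show this separation. It had 4286 and 3661 in Opn4-DTA/DTA, against 4031 and 4033 in WT.

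Epha5, a receptor for ephrin-A ligands in topographic mapping, lies on chromosome 5 from 84054765 to 84417382. Its 4 libraries were close together, at 4308 and 4196 normalized counts in Opn4-DTA/DTA, against 4176 and 4643 in WT (log2 fold change -0.05, 95% interval -0.27 to 0.17). Epha7, on chromosome 4 from 28813145 to 28947453, had 1572 and 1549 in Opn4-DTA/DTA, against 1607 and 1928 in WT. Both Opn4-DTA/DTA values of Epha7 were below both WT values, although WT library a was the closer by far (log2 fold change -0.17, 95% interval -0.45 to 0.10). Epha3, on chromosome 16 from 63545218 to 63864157, had 865 and 842 in Opn4-DTA/DTA, against 848 and 1148 in WT. Here 1 library set the difference, because WT library b stood alone above the other 3 libraries. The log2 fold change of Epha3 was -0.21 (95% interval -0.57 to 0.15). It was -0.43 without WT library a (limma adjusted p = 0.0433), the lone WT sample being assumed to vary like the other group, and 0.01 without WT library b (limma adjusted p = 0.981). Epha4, which binds ephrins of both classes, had 1577 and 1534 in Opn4-DTA/DTA, against 1586 and 1763 in WT, a narrow separation at a log2 fold change of -0.10. Epha2, Epha6 and Epha10 had overlapping libraries and fold changes of 0.02, -0.06 and -0.05. Epha1, at the edge of the minimum, had 7.10 and 8.19 in Opn4-DTA/DTA, against 12.8 and 12.2 in WT. These are 13 and 8 counts against 11 and 8 counts before division by the size factor, and its log2 fold change of -0.65, which was -0.39 with a pseudocount of 8, lies within a 95% interval of -1.67 to 0.38.

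EphB receptors bind ephrin-B ligands, and Ephb1 directs the ganglion cell axons that stay on their own side of the brain in mice. Of 5 EphB genes, 3 were above 0 and 2 below, turning to 4 above with scaling by library totals. Ephb1, on chromosome 9 from 101922128 to 102354693, had 1282 and 1100 normalized counts in Opn4-DTA/DTA, against 1146 and 1004 in WT, with the libraries overlapping. Ephb6, a family member without kinase activity on chromosome 6 from 41605482 to 41620507, had 1252 and 1175 in Opn4-DTA/DTA, against 1109 and 1093 in WT. The Ephb6 libraries did not overlap, at a log2 fold change of 0.14 (95% interval -0.10 to 0.38). Ephb3 had 853 and 775 in Opn4-DTA/DTA, against 822 and 904 in WT. Ephb4, a mark of venous endothelium, had 386 and 326 in Opn4-DTA/DTA, against 412 and 263 in WT, so that its WT libraries lay outside both Opn4-DTA/DTA libraries.

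Among netrins, the netrin-G gene Ntng1 came closest to a difference of all members. It lies on chromosome 3 from 109780050 to 110143472 and had 1144 and 1180 normalized counts in Opn4-DTA/DTA, against 1379 and 1335 in WT. Each pair was tight and the pairs did not overlap, with a log2 fold change of -0.22 (SE 0.10, 95% interval -0.46 to 0.01, limma adjusted p = 0.9997). Its relative Ntng2, on chromosome 2 from 29194821 to 29248040, had 2619 and 2550 in Opn4-DTA/DTA, against 2978 and 2744 in WT. Ntng2 was also separated, by -0.15 log2 units (95% interval -0.37 to 0.08), but 20.4% of its exon bases are shared with another gene on the same strand in GENCODE. Fold changes ran from -0.25 to -0.19 for Ntng1 and -0.20 to -0.09 for Ntng2 over all settings and with each library left out. Leaving out a library could not turn the sign of either gene, because the libraries of the genotypes did not overlap.

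The binding partners of the netrin-G proteins were measured too, and neither passed the test. Lrrc4c, the partner of netrin-G1, had 1721 and 1564 normalized counts in Opn4-DTA/DTA, against 1709 and 1659 in WT (log2 fold change -0.04). Lrrc4, the partner of netrin-G2, had 1404 and 1431 in Opn4-DTA/DTA, against 1308 and 1247 in WT (log2 fold change 0.15, limma adjusted p = 0.9997). Netrin-1, encoded by Ntn1, guides ganglion cell axons out of the eye at the optic disc through Dcc. Ntn1 was scarce, at 27.8 and 37.9 in Opn4-DTA/DTA, against 49.9 and 27.5 in WT, and these overlapping libraries leave an interval of -1.06 to 0.68. Of the other secreted netrins, Ntn4 was lower and Ntn3 higher in both Opn4-DTA/DTA libraries than in both WT libraries, by -0.14 and 0.11 log2 units, neither past the test.

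Means of the netrin receptors were below those of WT in 5 of 5 genes, with a median log2 fold change of -0.14, and none passed the test. The count stayed at 0 above 0 under both scaling alternatives, but Dcc and Unc5c turned above 0 without WT library b, and Unc5b without WT library a. Dcc was also above 0 without Opn4-DTA/DTA library b. Dcc varied most within genotypes among them. It lies on chromosome 18 from 71253632 to 72351069 and had 2312 and 1542 normalized counts in Opn4-DTA/DTA, against 1823 and 2597 in WT. The genotypes interleaved for Dcc, and its log2 fold change of -0.20 has a 95% interval of -0.72 to 0.31. Unc5c, a receptor for repulsion by netrin-1 on chromosome 3 from 141465564 to 141834922, had 2167 and 1913 in Opn4-DTA/DTA, against 2008 and 2449 in WT. Unc5d, on chromosome 8 from 28646717 to 29219636, had 1840 and 1747 in Opn4-DTA/DTA, against 1813 and 2147 in WT. In both, WT library b was the highest of the 4 libraries and WT library a lay between those of Opn4-DTA/DTA. Unc5a was the only netrin receptor whose libraries did not overlap, at 1147 and 1115 in Opn4-DTA/DTA, against 1234 and 1185 in WT (log2 fold change -0.10, 95% interval -0.34 to 0.14).

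**Figure D2:**
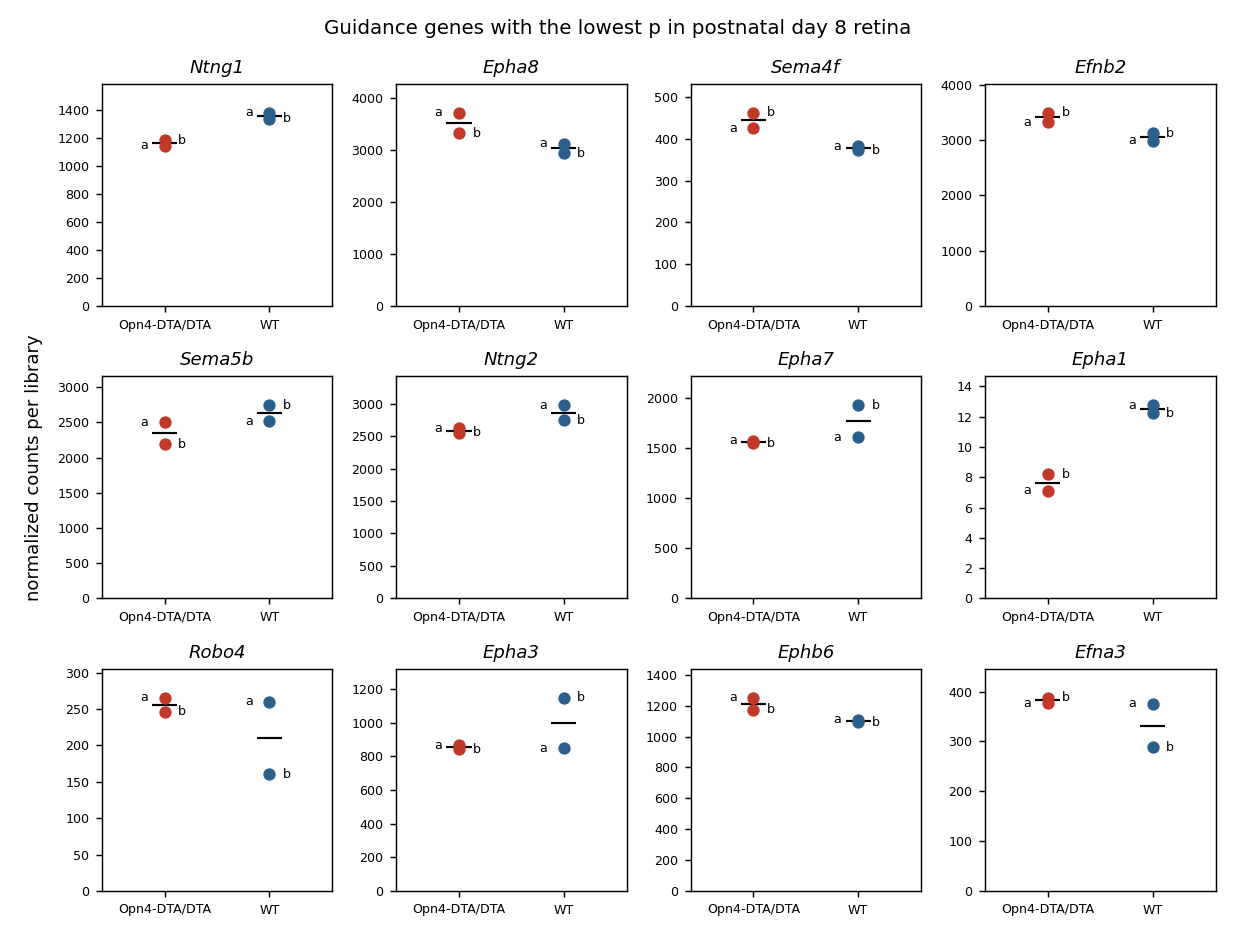
Normalized counts (y axis, from 0) in each library for the 12 guidance genes with the lowest limma p, Opn4-DTA/DTA in red and WT in blue. Letters mark library a and library b and short lines mark the group mean. Ntng1 shows 1144 and 1180 in Opn4-DTA/DTA below 1379 and 1335 in WT, while for Robo4 and Epha3 a WT library lies among the Opn4-DTA/DTA libraries.

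Of the semaphorins 11 of 19 genes were above 0, with a median log2 fold change of 0.02 and none past the test. With scaling by library totals 12 were above 0. Leaving out library a of Opn4-DTA/DTA gave 6, and leaving out its library b gave 14. The transmembrane semaphorins Sema5a and Sema5b keep neurites of the inner retina within the inner plexiform layer in mice. Sema5b, on chromosome 16 from 35541362 to 35664258, had 2504 and 2190 normalized counts in Opn4-DTA/DTA, against 2517 and 2746 in WT. Opn4-DTA/DTA library a and WT library a nearly coincided for Sema5b, so the separation is slight (log2 fold change -0.17, 95% interval -0.42 to 0.09). Sema5a, on chromosome 15 from 32244813 to 32696341, had 3961 and 3645 in Opn4-DTA/DTA, against 3594 and 4302 in WT, with the Opn4-DTA/DTA libraries inside the WT range.

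Sema6a, which acts through Plxna4 and Plxna2 to sort neurites into sublayers, lies on chromosome 18 from 47245254 to 47368868. It had 4153 and 3716 normalized counts in Opn4-DTA/DTA, against 3950 and 3641 in WT, with overlapping libraries and a log2 fold change of 0.05 (95% interval -0.19 to 0.29). Log2 fold changes of the 4 class 6 genes ran from 0.03 for Sema6c to 0.17 for Sema6d. The libraries overlapped in all 4, and Sema6d had 1268 and 1262 in Opn4-DTA/DTA, against 1287 and 984 in WT. Sema4f was the semaphorin with the lowest p. It is a membrane-bound class 4 semaphorin on chromosome 6 from 82911885 to 82939750, with 425 and 462 in Opn4-DTA/DTA, against 382 and 372 in WT. The Sema4f libraries did not overlap, at a log2 fold change of 0.23 (95% interval -0.08 to 0.55, limma adjusted p = 0.9997).

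Sema3b, a secreted class 3 semaphorin on chromosome 9 from 107598115 to 107609241, had the largest fold change of the semaphorins and 1 library set it. It had 278 and 249 normalized counts in Opn4-DTA/DTA, against 410 and 249 in WT. WT library b equalled Opn4-DTA/DTA library b after rounding, and WT library a alone was high. The log2 fold change of -0.28 (95% interval -0.84 to 0.27) became -0.64 without WT library b and 0.08 without WT library a. Sema3a, which repels axons through Nrp1, had 809 and 710 in Opn4-DTA/DTA, against 776 and 574 in WT. Sema3f, the main ligand of Nrp2, had 3189 and 3387 in Opn4-DTA/DTA, against 3691 and 2840 in WT. The libraries of both overlapped, as did those of Sema3c, Sema3d and Sema3e, with fold changes of 0.06, -0.06 and 0.02. Among class 4 genes other than Sema4f, the fold changes ran from -0.10 for Sema4g to 0.08 for Sema4c, with overlap in all 5. Sema7a, a lipid-anchored semaphorin that binds Plxnc1, lies on chromosome 9 from 57940135 to 57962865 and had 4493 and 3486 in Opn4-DTA/DTA, against 5100 and 3719 in WT. In each genotype library a was the higher for Sema7a, and the log2 fold change was -0.14 (95% interval -0.55 to 0.27).

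Plexins, the semaphorin receptors, had the smallest fold changes with all 4 libraries. The difference between the WT libraries was wider than the fold change in all 8 genes, as in 76.9% of all tested genes. Fold changes of the 8 genes lay between -0.04 and 0.08 on the log2 scale, with 4 above 0, 7 above 0 with scaling by library totals, and no pair of genotypes separated. Leaving out library a or library b of Opn4-DTA/DTA gave counts above 0 of 2 and 8, and leaving out those of WT gave 2 and 7. Over these settings Plxna4 ran from -0.29 to 0.25 and Plxna2 from -0.22 to 0.24. Plxna2, a receptor on starburst amacrine cells among others, lies on chromosome 1 from 194619829 to 194816868. It had 13760 and 12523 normalized counts in Opn4-DTA/DTA, against 11110 and 15241 in WT. The Opn4-DTA/DTA libraries fell inside the WT range, as they did for Plxna4, with 1785 and 1707 in Opn4-DTA/DTA, against 1463 and 2141 in WT. Plxna1, a receptor for class 5 semaphorins on chromosome 6 from 89316314 to 89362613, had 5205 and 4825 in Opn4-DTA/DTA, against 4596 and 4888 in WT. Plxna3, with the same role, had 1440 and 1298 in Opn4-DTA/DTA, against 1367 and 1443 in WT. Plxnb1 and Plxnb2, receptors of class 4 semaphorins, and Plxnc1 had fold changes of -0.03, -0.02 and 0.01. Interval limits for Plxna1, Plxna2, Plxna3 and Plxna4, the class A plexins, stayed between -0.42 and 0.38.

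Neuropilins bind class 3 semaphorins and, in vessels, VEGF. Nrp1, on chromosome 8 from 128359073 to 128505475, had 1236 and 1260 normalized counts in Opn4-DTA/DTA, against 1224 and 1315 in WT. Nrp2, on chromosome 1 from 62703317 to 62797091, had 1672 and 1479 in Opn4-DTA/DTA, against 1521 and 1445 in WT. The libraries overlapped for both, and the log2 fold changes were -0.02 (95% interval -0.27 to 0.22) and 0.08 (-0.17 to 0.34). With scaling by library totals both were above 0.

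Slits repel ganglion cell axons through Robo2 in the mouse retina and optic pathway. Slit2, on chromosome 5 from 47983155 to 48305778, had 5208 and 4860 normalized counts in Opn4-DTA/DTA, against 4453 and 6210 in WT, where the WT libraries again enclosed those of Opn4-DTA/DTA. Slit1, on chromosome 19 from 41600257 to 41743856, had 813 and 657 in Opn4-DTA/DTA, against 650 and 698 in WT. Slit3 was scarce at 38.2 and 28.6 in Opn4-DTA/DTA, against 29.0 and 49.0 in WT. None of the 3 was separated, and the log2 fold changes were -0.06 for Slit2, 0.12 for Slit1 and -0.18 for Slit3.

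Robo receptors had means above WT in 4 of 4 genes under each scaling, with a median log2 fold change of 0.07, none past the test and none separated. Without WT library b, and likewise without Opn4-DTA/DTA library a, 2 of the 4 were above 0. Robo2, on chromosome 16 from 73892306 to 74410912, was among the most even genes, at 7539 and 6976 normalized counts in Opn4-DTA/DTA, against 7125 and 7150 in WT (log2 fold change 0.02, 95% interval -0.19 to 0.23). Robo1, on the same chromosome from 72663149 to 73046100, had 2607 and 2124 in Opn4-DTA/DTA, against 2418 and 2126 in WT. Robo4 is the endothelial Robo and lies 2023 bases from its neighbour Robo3 on chromosome 9. It had 266 and 247 in Opn4-DTA/DTA, against 260 and 161 in WT. WT library b alone was low for Robo4, and its log2 fold change of 0.32 (95% interval -0.23 to 0.88) was -0.02 without that library and 0.67 without WT library a.

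Levels were compared between genes only as normalized counts per kb of exon, using exon lengths from GENCODE M21 on the same mouse genome. The authors' gene models may be shorter, so this order is approximate. Values are means ± SD over all 4 libraries without regard to genotype, since no member passed the test. Plexins were led by Plxnb2, at 1198 ± 110.5 per kb, and Plxna2, at 1192 ± 159, whose ranges overlap. The next plexins, Plxnb1 at 762 ± 72.8 and Plxna1 at 540 ± 27.8, were clear of their neighbours. Sema7a, at 1274 ± 224, and Sema3f, at 940 ± 102, overlapped as the leading semaphorins, and Sema3c was the lowest at 29.1.

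The other families were ranked in the same way. Robo2, at 807 ± 26.9 per kb, stood above Robo1 at 307 ± 31.3, Robo3 at 134 ± 7.22 and Robo4 at 45.7 ± 9.60, with no overlap of ranges. Slit2, at a mean of 517, stood above Slit1 at 120 ± 12.9 and Slit3 at 6.93 ± 1.83, again with no overlap. Among netrins Ntng2 led at 1018 ± 70.3 and Ntng1 followed at 206 ± 18.8, whereas Ntn1 had 5.88 ± 1.73. Epha8 led the EphA genes at 694 ± 70.9, ahead of Epha5 at 429 ± 21.4, and Ephb2 led the EphB genes at 367 ± 23.6. The ephrin-B genes Efnb3, at 756 ± 25.6, and Efnb2, at 674 ± 46.7, overlapped, and the ephrin-A genes lay between 62.0 for Efna4 and 321 for Efna2. Unc5a, at 293 ± 12.7, led the netrin receptors, and the ranges of Unc5c, Unc5d and Dcc, with means of 200 to 220, ran into each other.

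**Figure D3:**
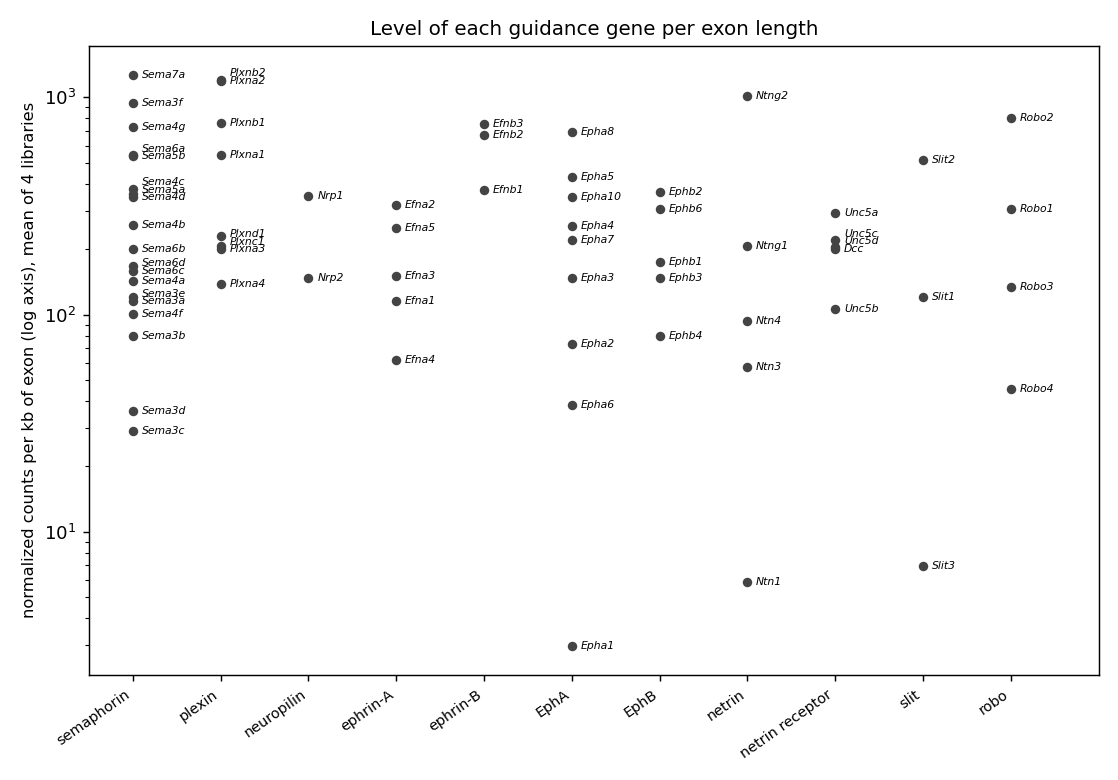
Mean level of each guidance gene over the 4 libraries, in normalized counts per kb of exon on a log axis, by family. Sema7a at 1274, Plxnb2 at 1198, Plxna2 at 1192 and Ntng2 at 1018 are the highest, whereas Ntn1 at 5.88, Slit3 at 6.93 and Epha1 at 2.98 are the lowest.

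Spread between libraries of a genotype was as wide as the genotype differences for most members. The log2 difference between the WT libraries was larger than the fold change between genotypes in 45 of 69 members (65.2%), and in 76.9% of all tested genes. A difference of single libraries varies more than a difference of means of 2 libraries, which by itself makes the former the larger in most genes. Its median size was 0.13 in members and 0.20 in all tested genes. Between the Opn4-DTA/DTA libraries the median was 0.13 in members and 0.09 in all tested genes. Library a was the higher of the Opn4-DTA/DTA pair in 55 of 69 members (79.7%), and in 50.2% of all tested genes. Among receptors this held for 30 of 33, and among ligands for 24 of 35. Within WT, library a was higher in 34 of 69 members. The sum over 6 lens markers also set Opn4-DTA/DTA library a apart, at 310.1 and 99.3 in Opn4-DTA/DTA, against 102 and 87.2 in WT. Most of this lay in Cryaa and Cryba1. Cryaa, a lens crystallin, had 156 and 3.07 in Opn4-DTA/DTA, against 6.96 and 0 in WT. Cryba1 had 69.3 and 23.5 in Opn4-DTA/DTA, against 18.6 and 18.4 in WT. Crygs was above 0 only in Opn4-DTA/DTA library a. Bfsp1 was level, at 66.1 and 70.6 in Opn4-DTA/DTA, against 65.0 and 65.8 in WT. Mip and Lim2 were highest in WT library a, and Lim2 was at 0 in WT library b. The part of lens RNA in the members' values was not tested.

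Some members that are known from vessels were among those that divided the WT libraries. Efna1, Robo4, Ephb4 and Plxnd1, chosen here after their values were seen, were all higher in WT library a, by 0.91, 0.69, 0.64 and 0.55 log2 units. Efnb2 and Nrp1, also found in vessels, were lower in WT library a, by differences of -0.06 and -0.10. Plxnd1, the endothelial receptor of Sema3e, had 1715 and 1505 normalized counts in Opn4-DTA/DTA, against 1852 and 1269 in WT. For Efna1, Ephb4 and Plxnd1 the Opn4-DTA/DTA libraries lay between those of WT. Of 10 vessel markers, 8 were also higher in WT library a than in library b, such as Cdh5, the endothelial cadherin, with 1205 and 1140 in Opn4-DTA/DTA, against 1322 and 771 in WT. The summed level of the 10 markers was 17763 and 16469 in Opn4-DTA/DTA, against 16724 and 16665 in WT. Kdr makes up most of this sum and was higher in WT library b. Of the 10 markers 9 had a log2 fold change above 0, with a median of 0.19 and none past the test. None of these markers was at 0, and their part in the values of the 4 members was not tested.

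Markers of several other cell types, but not of all, divided the same pair of libraries. Of 10 ganglion cell markers 9 were higher in WT library a, with sums of 56288 and 57179 in Opn4-DTA/DTA, against 67800 and 45430 in WT. All 7 bipolar cell markers were higher in WT library b, with sums of 54292 and 59679 in Opn4-DTA/DTA, against 59172 and 70169 in WT. Isl1, which is in both the ganglion and the bipolar list, was higher in WT library b. All 7 pigment epithelium markers were higher in WT library a, with sums of 4322 and 3300 in Opn4-DTA/DTA, against 7015 and 3036 in WT. So were all 8 microglia, all 4 astrocyte and all 6 rod markers, but 0 of 4 horizontal cell markers. Cones had 3 of 6 higher in WT library a, amacrine cells 4 of 6 and Muller glia 2 of 6. Of all tested genes 50.3% were higher in WT library a. The members higher in WT library b included Slit3, Sema3d, Plxna4, Dcc, Slit2 and Plxna2, by 0.74, 0.59, 0.55, 0.51, 0.48 and 0.46 log2 units. The part of these markers in the members' values was not tested.

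**Figure D4:**
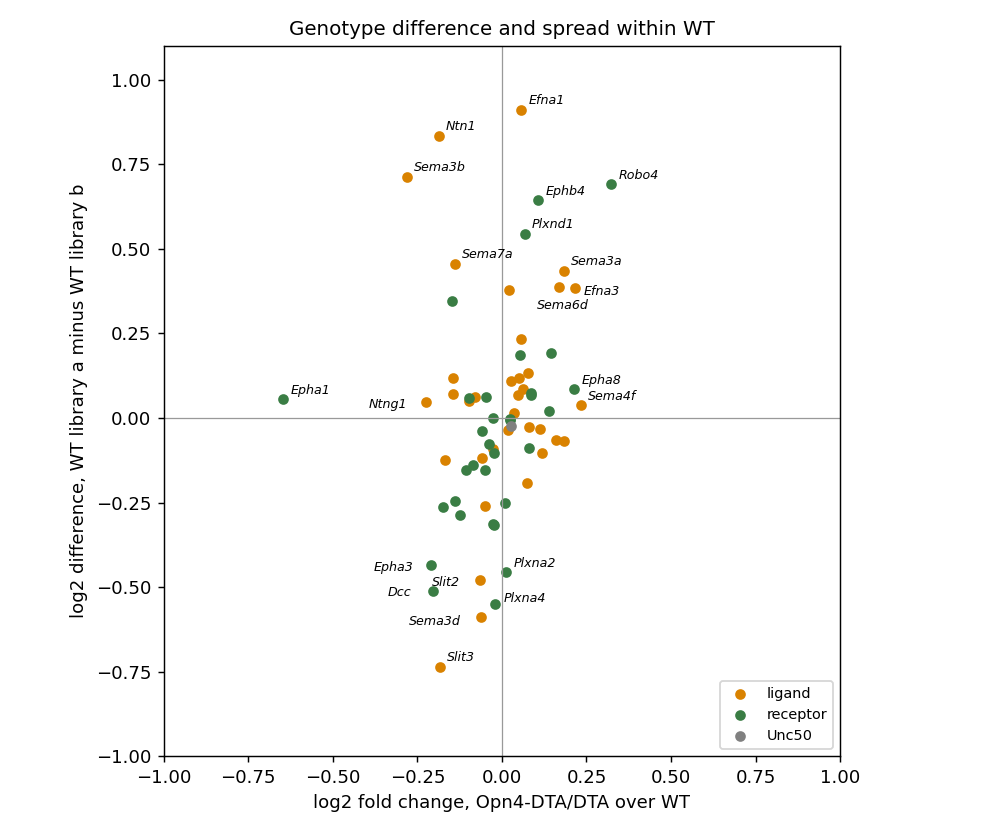
Log2 fold change of Opn4-DTA/DTA over WT (x axis) against the log2 difference of WT library a minus WT library b (y axis) for the 69 members, ligands in orange, receptors in green and Unc50 in grey. Both axes use the WT libraries and have the same scale. Points spread further along the y axis, up to 0.91 for Efna1, than along the x axis, where Epha1 at -0.65 is the farthest from 0. The y axis compares single libraries, which vary more than the means behind the x axis.

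Other genes of guidance signalling did not pass the test either. A list of 119 symbols for co-receptors, other ligands and intracellular effectors held 116 tested genes. None passed limma at an adjusted p of 0.05, 68 were above 0 and 48 below, and their median log2 fold change was 0.02. The lowest p belonged to Tnc, an extracellular matrix glycoprotein that borders axon paths, with 2322 and 1990 normalized counts in Opn4-DTA/DTA, against 1657 and 1855 in WT. This was a log2 fold change of 0.29 with an SE of 0.12, and it was the 1 gene of the 116 with an unadjusted p under 0.05, where 1.66% of all tested genes had one (limma adjusted p = 0.9997). Vav3, a signalling protein that acts below Eph receptors, had 883 and 842 in Opn4-DTA/DTA, against 740 and 732 in WT. Ngef, the Eph-linked exchange factor ephexin, had 409 and 423 in Opn4-DTA/DTA, against 381 and 331 in WT, and Shh had 139 and 170 in Opn4-DTA/DTA, against 138 and 97.9 in WT. In these 4 genes both Opn4-DTA/DTA libraries lay above both WT libraries, as in 13 of the 116 (11.2%) and in 11.2% of all tested genes. The opposite held for Bmp2, at 38.2 and 37.9 in Opn4-DTA/DTA, against 69.6 and 41.3 in WT, and for 3 other genes, together 3.45% of the list against 12.3% of all tested genes.

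The authors' deposited table gave each of the 69 members an adjusted p-value of 0.9997. In the authors' deposited values 2 of 69 members had an unadjusted p under 0.05, where 330 of 15003 genes, 2.2%, did. These were Ntng1, with a log2 fold change of -0.15 (SE 0.07), and Epha8, with 0.15 (SE 0.07), in the authors' deposited table. For the same group means the limma fold changes here were larger in size, at -0.22 and 0.21. For Epha1 the deposited value was -0.03, against -0.65 here, so the 2 sets of fold changes are not on the same scale. The libraries behind that table are the ones recovered here, so it is no separate evidence for either gene.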

How the data were processed

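RNA from postnatal day 8 retinas was made into directional libraries of polyadenylated RNA and read on a HiSeq2500, as the labels' protocols state. The submitters' processing notes list FastQC, STAR, HTSeq, DESeq2 and mm10 with no version, and strand settings are not given in the sources used here. The authors deposited a signal per genotype, the mean of size-factor normalized counts over 2 libraries, per the file headers and values. The authors also deposited, per the file headers, log2 fold changes and their standard errors, p-values raw and adjusted, and the test's score.

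Whole counts of both libraries were solved from each group mean, with 1 solution at a relative tolerance of 3e-13, for 17757 means above 0 in WT and 18327 in Opn4-DTA/DTA, with 0 unsolved. Because the deposited columns are means, no negative binomial model was run. limma 3.58.1 in R 4.3.3 was fitted with a mean-variance trend to log2(normalized count + 1) of the 15003 genes with a mean of at least 10, and adjusted by Benjamini-Hochberg at 0.05 over all of them. On the log2(value + 1) scale a fold change understates what low genes do. Whether both libraries of a genotype stem from different animals is not in the labels, and p-values then measure only the spread between these libraries, which may be technical. The fit and the solving of pairs were tested on simulated data.

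Values in every library are given for the 12 members with the lowest p, for the member with the highest mean normalized count and the one with the largest fold change in each family, for members with an unadjusted p under 0.05 in the authors' table, and for members with a textbook role in retinal wiring. Those of other members were added to illustrate a family or the spread between libraries. Members and lists were chosen with earlier results of these data known. Alternatives were another pseudocount, no filter, other scalings, no variance trend, voom weights, and each library left out. A second sheet, which repeats rows of other genes, and 1 emptied line were not used.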

Additional observations from a re-analysis of the deposited data

How the results depend on the processing

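The count of members past the threshold was 0 under each alternative with all 4 libraries, namely a pseudocount of 8, no filter, scaling by library totals or by the upper quartile, no variance trend and voom weights. With 1 library left out it ranged from 0 to 1, with Epha3 without WT library a and Sema3b without WT library b. That of the 116 pathway genes ranged from 0 to 2 with 1 library left out, the 2 being Nck1 and Pak3 without WT library b. Of all tested genes 3 passed, 0 without a variance trend (limma), and 10 to 306 with 1 library left out. Members above 0 numbered 35, 41 with scaling by library totals, and 21 to 47 with 1 library left out. Their median log2 fold change lay between -0.05 and 0.05 throughout. Scaling by library totals moved the median of all tested genes to 0.03. No paired analysis was possible because the genotypes share no replicate numbers and no library could be tied to a label. Having 2 libraries per genotype bounds each fold change only as far as its interval, and for genes near the minimum, such as Epha1, counting error alone is wide.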
